A study of Mus musculus with 2 samples.

Results

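The neuronal calcium sensor genes described here are 8 mouse genes: Vsnl1, Hpcal1, Hpcal4, Ncald, Ncs1, Kcnip1, Kcnip4 and Caln1. Their members in the data are the H3K9me2 peaks that overlapped the RefSeq body of each gene extended by 2 kb on both sides, and peaks within a further 500 kb are given as surroundings. By that rule the 8 genes, of 21523 coding genes used, held 8 of the 6253 peaks of the transgenic list and 2 of the 743 peaks of the wild-type list. H3K9me2, dimethylation of lysine 9 on histone H3, was mapped by chromatin immunoprecipitation with sequencing in C57BL/6 embryonic cortex at embryonic day 15.5. The groups were TBC1D3-transgenic cortex and wild-type cortex, with 1 library each, and the promoter that drives the transgene and the number of embryos pooled are not given in the sources used here. The genes were chosen by the peaks listed in them (their p, q and number, above all in Vsnl1 and Caln1), so their counts are a description and no test was made. Peaks carry no expression, so the tissue label was not checked against marker genes.

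Neuronal calcium sensors are small EF-hand proteins that bind calcium and then change their hold on membranes and on partner proteins. The visinin-like proteins and neurocalcin carry a myristoyl group that is exposed when calcium binds, Ncs1 acts on phosphatidylinositol 4-kinase and on exocytosis, and the KChIPs (the Kcnip genes) are accessory subunits of Kv4 potassium channels. Caln1 encodes calneuron 1, also called CaBP8, which belongs to the related CaBP branch of EF-hand proteins rather than to the sensor family proper. H3K9me2 is a mark of repressed chromatin written in large part by the enzymes G9a (Ehmt2) and GLP (Ehmt1). TBC1D3 is a hominoid gene that mice lack, and the series title links it with G9a and with neural progenitors.

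The transgenic list rested on 20697113 ChIP tags and the wild-type list on 26735120. The authors called peaks in each library against its own input, with a fragment extension of 111 bp in the transgenic library and 57 bp in the wild-type library. The median peak rested on 6 fragments in both lists, and 0 transgenic and 0 wild-type peaks had a listed q of 0.05 or less. With 1 library per genotype no replicate check was possible, and the intervals given cover only counting error. The peaks were narrow, with a median width of 115 bp in the transgenic list and 57 bp in the wild-type list. Signal spread over wider stretches was not measured, so 0 peaks in a gene does not mean that it lacks H3K9me2.

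RefSeq promoter windows, from 250 bases before to 50 after a listed transcript start (GRCm38.p6), were on hand for 7 of the 8 genes, 11 windows in all; Ncald was not matched. No window of these genes held a peak, 0 of 11 in the transgenic list and 0 of 11 in the wild-type list. Over all 32619 windows a transgenic peak overlapped 0.0582% and a wild-type peak 0.00613%, so 0 of 11 is near what all windows show. The windows of Vsnl1, of Caln1 and of the Kcnip4 start next to peaks of both lists are shown because these 3 genes held more than 1 peak. CG dinucleotides are in capitals, and each window is written 5′ to 3′ on the gene's strand.
Vsnl1, chr12:11435602-11435901, minus strand: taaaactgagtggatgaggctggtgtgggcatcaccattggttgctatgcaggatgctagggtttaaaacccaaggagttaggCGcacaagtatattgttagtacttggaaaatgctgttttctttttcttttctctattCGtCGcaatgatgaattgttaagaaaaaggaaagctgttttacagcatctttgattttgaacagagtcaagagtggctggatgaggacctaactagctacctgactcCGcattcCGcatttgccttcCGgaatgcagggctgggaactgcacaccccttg
Vsnl1, chr12:11436529-11436828, minus strand: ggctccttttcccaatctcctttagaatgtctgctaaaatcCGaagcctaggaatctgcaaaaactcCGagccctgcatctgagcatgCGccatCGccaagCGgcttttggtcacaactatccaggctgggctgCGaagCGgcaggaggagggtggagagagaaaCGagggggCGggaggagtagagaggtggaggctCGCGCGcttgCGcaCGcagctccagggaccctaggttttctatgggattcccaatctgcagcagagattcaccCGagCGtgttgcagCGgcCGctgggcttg
Kcnip4, chr5:49285610-49285909, minus strand: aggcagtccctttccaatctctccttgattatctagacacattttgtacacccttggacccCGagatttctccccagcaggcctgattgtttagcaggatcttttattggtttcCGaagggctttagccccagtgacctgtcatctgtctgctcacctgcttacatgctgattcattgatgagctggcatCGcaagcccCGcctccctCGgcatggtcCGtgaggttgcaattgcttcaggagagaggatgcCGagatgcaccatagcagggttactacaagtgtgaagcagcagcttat
Caln1, chr5:130369208-130369507, plus strand: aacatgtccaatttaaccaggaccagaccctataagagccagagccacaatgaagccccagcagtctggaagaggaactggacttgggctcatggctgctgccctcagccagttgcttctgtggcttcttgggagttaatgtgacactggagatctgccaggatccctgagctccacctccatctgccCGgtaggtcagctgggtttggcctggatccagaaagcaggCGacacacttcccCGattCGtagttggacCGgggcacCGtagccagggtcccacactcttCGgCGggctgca
The dinucleotide CG reads alike on both strands and occurs in 94.7% of all windows of this length, with a median of 7 per window. The printed windows held 6 and 18 CG in Vsnl1, 7 in Kcnip4 and 8 in Caln1. The other windows ranged from 4 in a Kcnip1 window to 40 in the window of Ncs1, with 27 in Hpcal1 and 22 in Hpcal4. The windows richest in CG thus belonged to Ncs1, Hpcal1 and Hpcal4, which held no peak in either list and are the 3 shortest of the 8 genes.

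Vsnl1, which encodes visinin-like protein 1, a myristoylated sensor of neurons, held the most peaks of the 8 genes. It lies on chromosome 12 from 11325257 to 11436578 (GRCm38) and is 111 kb long. The transgenic list placed 3 peaks in it, at 11382958 to 11383100, 11394356 to 11394476 and 11426500 to 11426610. Each rested on 6 fragments, with folds of 3.34, 3.13 and 3.34 and q values of 0.238, 0.297 and 0.238. The wild-type list placed 1 peak in it, at 11330915 to 11330971, with 9 fragments, a fold of 5.23 and a q of 0.708. Fold here is the caller's ratio of fragments at the summit plus 1 to local background plus 1. In the wild-type list the caller first scaled the fragments by 0.951. The transgenic peaks were thus weak within their own list, where 4375, 5124 and 4375 peaks had a lower p, while 20 wild-type peaks had a lower p than the wild-type one.

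No Vsnl1 peak was shared. The transgenic peaks lay 9.07, 41.2 and 52.6 kb downstream of the nearest listed start, toward the upstream end and middle of the gene. The wild-type peak lay 105 kb downstream, at the far end, and 52.0 kb from the nearest transgenic peak. This is no trait of Vsnl1: over all 743 wild-type peaks the median distance to a transgenic peak was 93.4 kb. Only 10.1% of them had a transgenic peak within 10 kb, and 52.1% within 100 kb. The mean density of chromosome 12 gives 0.288 transgenic and 0.0355 wild-type peaks over a span as long as Vsnl1, against which the lists held 3 (exact Poisson 95% interval 0.619 to 8.77) and 1 (0.0253 to 5.57). Among 1108 other coding genes within 20% of its length, 11.9% held a transgenic peak, with a mean of 0.132, and 1.35% a wild-type peak, with a mean of 0.0144. Of those genes 3, or 0.271%, held at least 3 transgenic peaks: Ppp1r1c, a regulator of protein phosphatase 1, Gm765 and Stac, an adaptor protein, each with 3. Stac alone of them also held a wild-type peak. Vsnl1 was chosen with these peaks known, so these shares are no measure of how unusual it is.

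Hpcal1 and Hpcal4, which encode the visinin-like proteins VILIP-3 and VILIP-2, held 0 transgenic and 0 wild-type peaks. Hpcal1 lies on chromosome 12 from 17690750 to 17791944 and, at 101 kb, is close to Vsnl1 in length. Against 0.262 transgenic and 0.0324 wild-type peaks at the mean density of the chromosome, 0 peaks did not set it apart, and the Poisson interval of 0 reaches 3.69. Of 1199 coding genes of like length, 11.1% held a transgenic peak and 1.08% a wild-type peak. Hpcal4, on chromosome 4 from 123183504 to 123194699, is 11.2 kb long, and only 1.11% of 2077 genes of like length held a transgenic peak. The nearest peaks outside the 2 kb limit lay 461 kb from Hpcal1 and 253 kb from Hpcal4 in the transgenic list, and 1225 kb and 828 kb away in the wild-type list.

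Ncald encodes neurocalcin delta, a myristoylated sensor that binds membranes in response to calcium. It lies on chromosome 15 from 37366175 to 37792519 and is 426 kb long. The transgenic list placed 1 peak in it, at 37552558 to 37552668, with 5 fragments, the fewest any peak has, a fold of 2.92 and a q of 0.363. The wild-type list placed 0 in it, and its nearest wild-type peak lay 4.47 kb beyond the low end of the gene, inside Grhl2, a grainyhead transcription factor gene. That peak, with 6 fragments and a fold of 3.98, was the closest of any outside the 2 kb limit. The transgenic count was near the 1.13 peaks that the chromosome's mean density gives and the mean of 1.13 over 233 coding genes of like length, of which 57.5% held a peak.

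Ncs1, which encodes frequenin, lies on chromosome 2 from 31245708 to 31295989 and is 50.3 kb long. It held 0 transgenic and 0 wild-type peaks, where the mean density of the chromosome gives 0.130 and 0.017. The nearest transgenic peak lay 417 kb away inside Abl1, a tyrosine kinase gene, with 7 fragments and a fold of 3.86. The nearest wild-type peak lay 95.4 kb away inside Hmcn2, which encodes a hemicentin, with 6 fragments and a fold of 4.23.

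The KChIP genes differed in their counts. Kcnip4, on chromosome 5 from 48389503 to 49525122, is the longest of the 8 genes at 1136 kb. The transgenic list placed 2 peaks in it, at 48549302 to 48549412 with 5 fragments, a fold of 3.02 and a q of 0.363, and at 49246795 to 49246905 with 6 fragments, a fold of 3.65 and a q of 0.168. The wild-type list placed 1 peak in it, at 49239157 to 49239213, with 6 fragments, a fold of 4.38 and a q of 1. That wild-type fold equals the highest of the 255 wild-type peaks with 6 fragments, but in the whole list 228 wild-type peaks had a lower p.

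The second transgenic peak and the wild-type peak of Kcnip4 lay 7.58 kb apart without overlap, 38.8 and 46.5 kb downstream of the same listed start. This made Kcnip4 the only one of the 8 genes with peaks of both lists within 10 kb, a distance at which 75 of 743 wild-type peaks (10.1%) had a transgenic peak. For its length Kcnip4 held fewer transgenic peaks than the mean. Among 54 coding genes within 20% of its length, 94.4% held a transgenic peak with a mean of 3.43, and 38.9% a wild-type peak with a mean of 0.481. The mean density of chromosome 5 gives 2.50 transgenic and 0.299 wild-type peaks.

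Kcnip1, on chromosome 11 from 33629339 to 33993348, is 364 kb long and held 0 transgenic and 0 wild-type peaks. The mean density of its chromosome gives 0.848 and 0.127 peaks, and 48.8% of 287 genes of like length held a transgenic peak, so its lack of peaks was within counting error. The nearest transgenic peak lay 247 kb away inside Dock2, a Rac activator of blood cells, with 6 fragments and a fold of 3.39, and the nearest wild-type peak lay 723 kb away.

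Caln1 encodes calneuron 1, a calcium sensor of neurons that acts at the Golgi. It lies on chromosome 5 from 130369404 to 130846325 and is 477 kb long. The transgenic list placed 2 peaks in it, and the wild-type list 0. One, at 130496401 to 130496535, rested on 11 fragments with a fold of 6.01 and a q of 0.0673, the lowest q of the list, which other peaks share. A lower p was listed for 7 transgenic peaks, and 0.496% of the transgenic list had as many fragments. The other, at 130421425 to 130421535, rested on 6 fragments with a fold of 3.39 and a q of 0.216, and 4235 transgenic peaks had a lower p. They lay 127 and 52.1 kb downstream of the listed start. In number Caln1 was not apart from genes of its size: the chromosome's mean density gives 1.05 transgenic peaks, and 33.2% of 211 genes of like length held at least as many. The nearest wild-type peak lay 1287 kb from the gene.

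**Figure D1:**
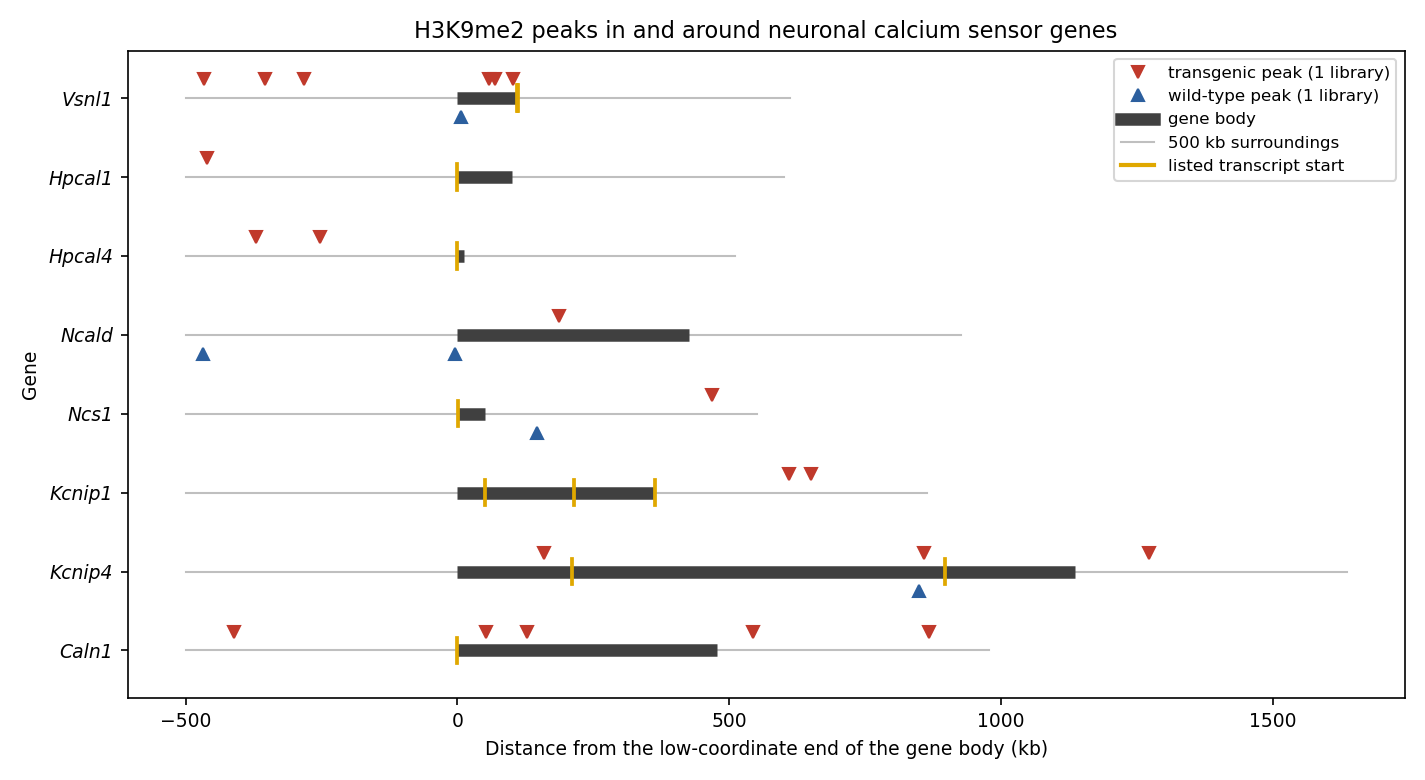
Map of the 8 genes, 1 row each, with position in kb from the low-coordinate end of the gene body on the x axis; dark bars are gene bodies, grey lines the 500 kb surroundings, yellow ticks the listed transcript starts, red triangles above the line transgenic peaks and blue triangles below it wild-type peaks. Vsnl1 carried 3 transgenic peaks and 1 wild-type peak, Kcnip4 2 and 1, Caln1 2 and 0, Ncald 1 and 0, and the other genes 0 and 0.

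Apart from the Caln1 peak with 11 fragments, the transgenic peaks of these genes were ordinary or weak members of their list. The folds of all 8 transgenic peaks, that one included, ranged from 2.92 to 6.01 with a median of 3.34, where the whole transgenic list had a median of 3.62. The wild-type folds of 4.38 and 5.23 both lay above the wild-type list's median of 3.90. A fold of at least 5 was reached by 1 transgenic peak, in Caln1, and by 1 wild-type peak, in Vsnl1. Folds of the lists are on scales that differ in background and extension and were not compared between genotypes. All 8 transgenic peaks and both wild-type ones were placed within gene bodies, and none in a second annotated gene.

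**Figure D2:**
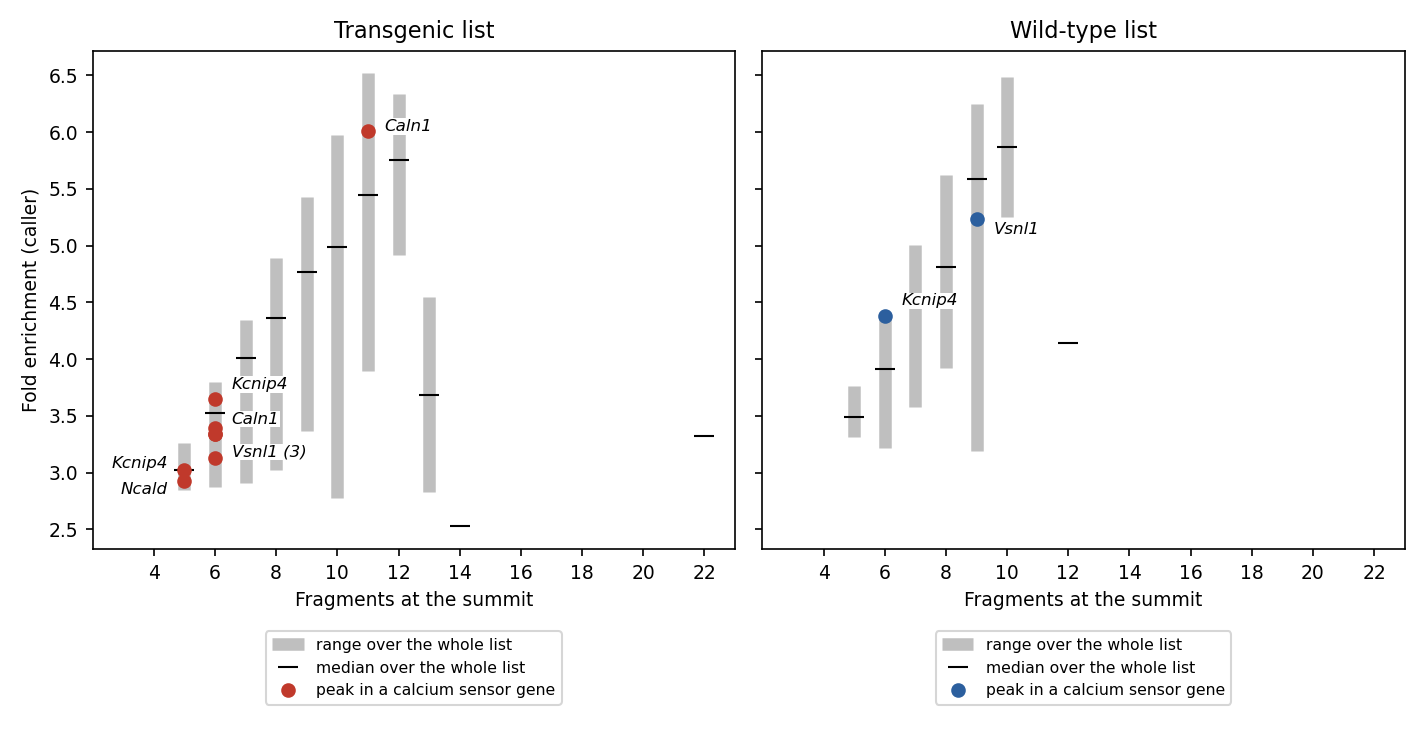
Fold enrichment (y axis, the caller's ratio) against fragments at the summit (x axis) in the transgenic list (left) and the wild-type list (right); grey bars span the lowest to the highest fold of all peaks with that number of fragments, black ticks are medians, and coloured points are peaks of the calcium sensor genes. The Caln1 peak with 11 fragments and a fold of 6.01 stands well above the other 7 transgenic peaks, which have 5 or 6 fragments.

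With all 8 genes summed, the transgenic list held 8 peaks (95% interval 3.45 to 15.8) in 2.71 Mb, where the chromosomes' mean densities give 6.24 and the means of coding genes of like length add up to 7.01. The wild-type list held 2 (0.242 to 7.22), where these give 0.825 and 0.912. A peak was present in 4 of 8 genes in the transgenic list (50%, exact 95% binomial interval 15.7 to 84.3) and in 2 of 8 in the wild-type list (25%, 3.19 to 65.1). Over all coding genes those shares were 5.69% and 0.911%, but the 8 genes are long, with a median of 238 kb against 17.4 kb over all coding genes, and were chosen with peaks in view, so nothing is read from this. In peaks per Mb the 8 genes had 1.77 times (0.764 to 3.50) the density of the other coding genes in the transgenic list and 3.83 times (0.461 to 14.0) in the wild-type list. These ratios are not matched for gene length and rest on genes chosen by their peaks. Coding genes as a whole, counted gene by gene, held 1892 transgenic and 220 wild-type peaks. The chromosomes' mean densities give 2781 and 335 for them, so the chromosome mean is the higher yardstick. The transgenic ratio was 0.707 with a −log10 p of at least 5 and 10.7 with a fold of at least 5, each from the Caln1 peak alone; the wild-type ratios were then 9.48 and 27.8, from the Vsnl1 peak alone. At least 3 transgenic peaks were held by 0.664% of coding genes and at least 2 by 1.53%.

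**Figure D3:**
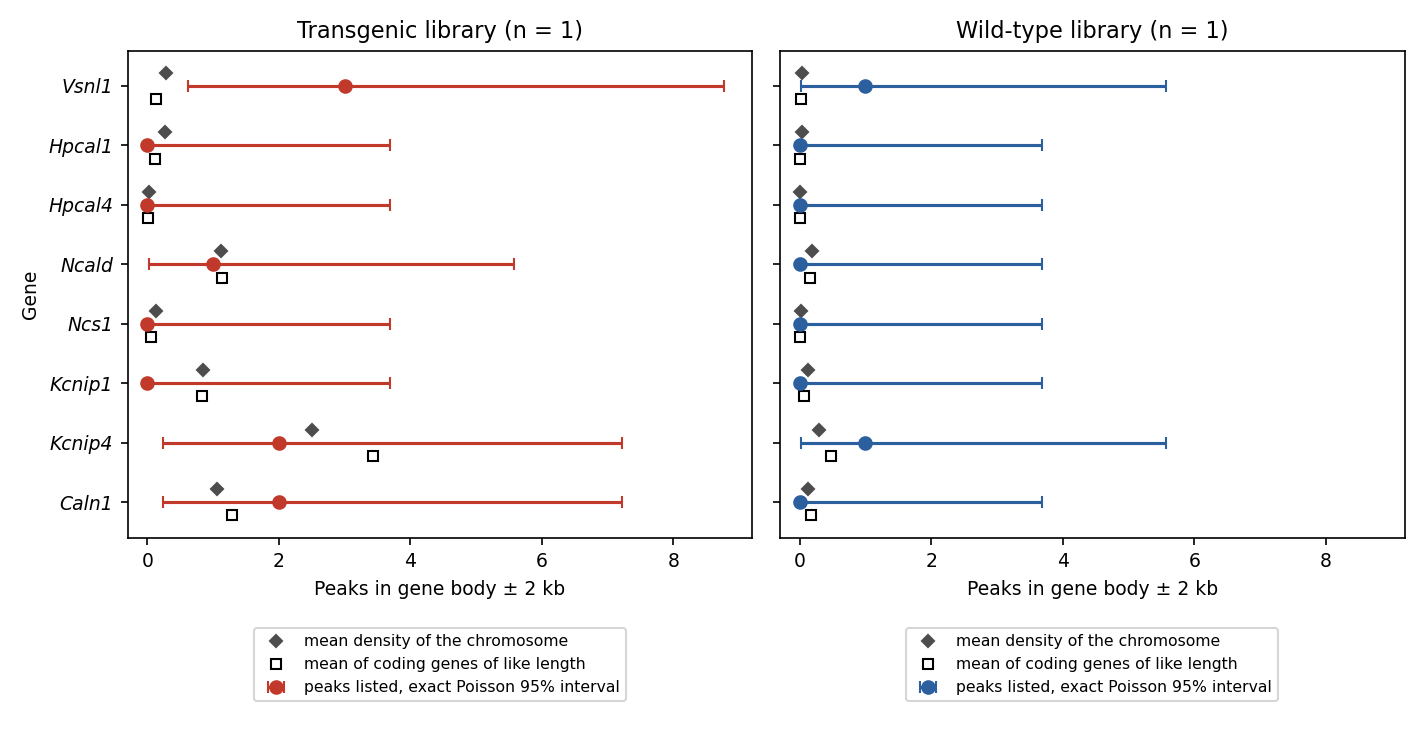
Peaks in each gene body extended by 2 kb (x axis) for the 8 genes (y axis) in the transgenic library (left) and the wild-type library (right); circles are the peaks listed with exact Poisson 95% intervals, diamonds the number at the mean density of the chromosome and open squares the mean of coding genes within 20% of the gene's length. Vsnl1, chosen with these counts known, shows 3 transgenic peaks beside 0.288 and 1 wild-type peak beside 0.0355 at the mean density of its chromosome, and Kcnip4 2 beside 2.50 and 1 beside 0.299.

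Gene length and the presence of a peak went together over all coding genes. Of coding genes over 300 kb and up to 600 kb, 57.3% held a transgenic and 10.9% a wild-type peak, and of the members of that size Ncald and Caln1 held transgenic peaks and Kcnip1 held 0. Over 600 kb the shares were 86.8% and 29.6%, the class of Kcnip4. Over 50 kb and up to 150 kb, the class of Vsnl1, Hpcal1 and Ncs1, they were 9.30% and 1.07%, and Vsnl1 was the member with peaks. Up to 50 kb, the class of Hpcal4, they were 1.74% and 0.139%, and over 150 kb and up to 300 kb, where no member lies, 27.6% and 5.22%.

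**Figure D4:**
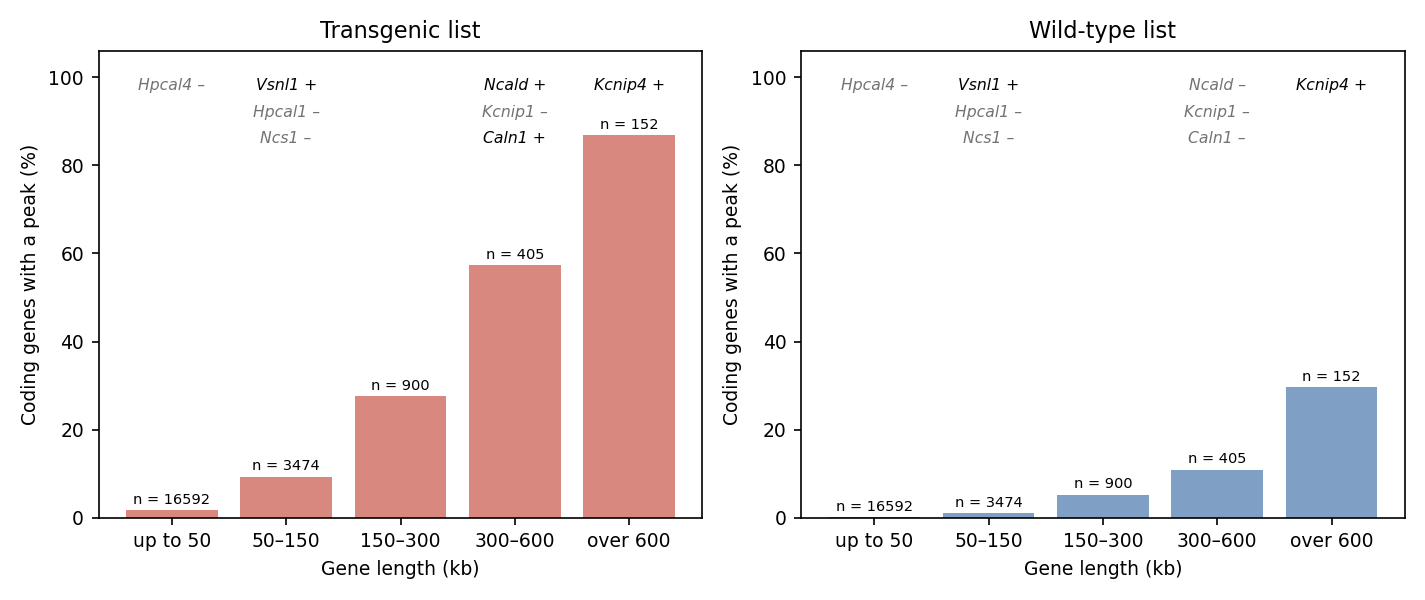
Share of coding genes with a peak (y axis, percent) by gene length (x axis, kb) in the transgenic list (left) and the wild-type list (right), with the number of genes above each bar; the 8 genes are written over their class, with a plus sign where they held a peak and a minus sign where they held 0. Vsnl1, chosen with its peaks known, holds peaks in both lists. In its class 9.30% of genes hold a transgenic peak and 1.07% a wild-type peak, each list counted alone.

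The peaks of these genes lay away from listed starts, as peaks in coding genes did in general. The 7 transgenic peaks of genes with a listed start had a median distance of 50.3 kb to it (9.07 to 127), against a median of 69.7 kb over 1439 transgenic peaks in coding genes with a listed start. For the wild-type list the distances were 46.5 and 105 kb, against a median of 103.9 kb over 173 peaks. Within 10 kb of a listed start lay 15.1% of those transgenic peaks and 11.6% of those wild-type peaks, and among the members the Vsnl1 peak at 9.07 kb did. Exons and introns were not separated.

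In the 500 kb on both sides of the genes, outside the 2 kb limit, the transgenic list held 13 peaks (6.92 to 22.2) where the chromosomes' mean densities give 18.8. The wild-type list held 3 (0.619 to 8.77) where they give 2.53. The density in the genes was 1.82 times (0.653 to 4.73) that of the surroundings in the transgenic list and 1.97 times (0.164 to 17.2) in the wild-type list. The genes were chosen by the peaks in them and the surroundings were not. That choice favours ratios above 1, so nothing is read from these ratios. Vsnl1 had 3 transgenic peaks on its low-coordinate side, all intergenic and nearest to Kcns3, a potassium channel subunit gene, the closest of them 281 kb away with 9 fragments and a fold of 5.03. On the other side of Vsnl1 no peak of either list was present within 500 kb.

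The other surroundings held few peaks. Caln1 had 3 transgenic peaks, 1 in Vkorc1l1, a relative of the vitamin K epoxide reductase, and 2 in its neighbour Galnt17, a glycosyltransferase, at 67.4 and 391 kb. Kcnip1 had 2 transgenic peaks in Dock2, and Hpcal4 had 2 intergenic ones whose nearest coding genes were Ppt1, a lysosomal thioesterase, and Mfsd2a, a lipid transporter. Hpcal1 had 1 near Pdia6, a disulfide isomerase, Ncs1 had 1 in Abl1, and Kcnip4 had 1 intergenic peak 137 kb away with 8 fragments and a fold of 4.08. Ncald had 0 transgenic peaks and 2 wild-type peaks, 1 in Grhl2 and 1 intergenic peak 468 kb away. The remaining wild-type peak was that in Hmcn2 beside Ncs1.

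The rest of the family consists of short genes with few peaks. Of 11 further genes, Hpca, Rcvrn, Guca1a, Guca1b, Kcnip2 and Kcnip3 of the sensor family and Cabp1, Cabp2, Cabp4, Cabp5 and Cabp7 of the CaBP branch, 1 held a transgenic peak (9.09%, against 5.69% of all coding genes) and 0 a wild-type peak (against 0.911%). Up to 50 kb, the class of all of them but Kcnip3, the shares were 1.74% and 0.139%. Over 50 kb and up to 150 kb, that of Kcnip3, they were 9.30% and 1.07%. The median length of these 11 genes is 14.4 kb, and the mean densities of their chromosomes give 0.602 transgenic and 0.081 wild-type peaks in all. With 1 peak in 11 genes, nothing is read from the counts. The peak lay in Cabp2, a CaBP gene of retina and inner ear, at chromosome 19 from 4082077 to 4082244, with 6 fragments and a fold of 3.11. Of the 19 genes of both branches, the 8 chosen with peaks in view included, 5 held a transgenic and 2 a wild-type peak.

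Among the Kv4 channel genes and their other partners, with which the KChIPs assemble, 4 of 5 held a transgenic peak and 1 of 5 a wild-type peak. Most are long. Of coding genes over 600 kb, the class of Dpp6 and Dpp10, 86.8% held a transgenic and 29.6% a wild-type peak. Over 300 kb and up to 600 kb, that of Kcnd2, the shares were 57.3% and 10.9%. Over 150 kb and up to 300 kb, that of Kcnd3, they were 27.6% and 5.22%. Up to 50 kb, that of Kcnd1, they were 1.74% and 0.139%. With 5 genes spread over these classes, nothing is read from the counts. Dpp6, an accessory subunit, held 3 transgenic peaks with folds of 4.03, 4.53 and 4.29 and 1 wild-type peak with a fold of 3.63. Kcnd2, Kcnd3 and Dpp10 held 1 transgenic peak each, with folds of 3.02, 2.86 and 3.17, and Kcnd1 held 0. The 6 transgenic peaks compare with 8.03 at the mean densities of their chromosomes, and the 1 wild-type peak with 0.754. In peaks per Mb these 5 genes had 1.13 times (0.413 to 2.46) the transgenic density of coding genes outside the 8 members. In the wild-type list the ratio was 1.62 (0.0409 to 9.13). Coding genes as a whole lay below the mean densities of their chromosomes, so a count under that mean can go with a ratio above 1. Dpp6 held peaks of both lists, as did Kcnip4, of the same length class, and the shorter Vsnl1. Ehmt1 and Ehmt2 held 0 transgenic and 0 wild-type peaks, where the mean densities of their chromosomes give 0.367 and 0.0484. Only 5.69% and 0.911% of all coding genes held a peak, and the Poisson interval of 0 reaches 3.69. Their lack of peaks was thus within counting error.

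Genes with the same pair of counts on the same chromosome, nearest in length, were Sema5a (a semaphorin), Tmem117 and Pdzd2 for Ncald, of 31 with 1 transgenic and 0 wild-type peaks. For Caln1 they were Cfap299, Gabrb1 (a GABA-A receptor subunit) and Slc4a4 (a bicarbonate transporter), of 12 with 2 and 0. No other gene on chromosome 12 had the counts of Vsnl1 and none on chromosome 5 those of Kcnip4, while 13 and 17 other coding genes in the genome did. The likeness rests on 2 libraries alone.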

How the data were processed

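Peaks of H3K9me2 from 1 transgenic and 1 wild-type library were used as deposited, with groups from the genotype label. The authors ran MACS 2.1.0.20150420 on each library against its own input, per the file headers, at a p cutoff of 0.001, without a shift model, and extended fragments by 111 bp (transgenic) or 57 bp (wild type). The submitters' processing notes name BWA, with no version, and mm10. The deposited pileup is a signal of extended fragments at the summit, the larger of ChIP and input having been scaled down by the authors. Dividing by that scale (1 in the transgenic list, 0.951 in the wild-type list) gave whole fragments within 0.005. The deposited fold enrichment is a ratio over local background, and the deposited −log10 p-values and q-values are the caller's. The headers say that q is not calculated, yet the lists hold it, and q is given as 10 to the minus the listed value.

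Genes came from a RefSeq table of GRCm38.p6, the assembly of mm10: chromosomes 1 to 19 and X, starts of at least 3 Mb, 49214 genes, 21523 of them coding; 340 genes with lower starts were left out. A peak counted when at least 1 bp overlapped the gene extended by 2 kb. Chromosome density is peaks over the span from 3 Mb to the last gene or peak. Genes of like length are within 20%. Intervals are exact at 95% (Poisson, Clopper-Pearson, and conditional binomial for ratios). Counting was tested on simulated peaks. Python 3.11.15, numpy 2.4.6, pandas 2.3.3 and scipy 1.17.1 were used.

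The 8 genes and the lists were chosen with earlier results of these data known. Named genes were the 8 genes, the other genes of the lists, coding genes within 500 kb that hold a peak, and up to 3 coding genes of the same chromosome with the same pair of counts. Ppp1r1c, Gm765, Stac and nearest genes of intergenic peaks were named after their values were seen. Alternatives were a fold of at least 5, a −log10 p of at least 5, a shortened transgenic list, merging within 1 kb, other extensions (0 and 10 kb), the summit in place of any overlap, and surroundings of 250 kb and 1 Mb. No genome sequence was used, so the bases of the peaks are not analysed here. Part of a list fixed at the start is not reported here.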

Additional observations from a re-analysis of the deposited data

How the results depend on the processing

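Merging within 1 kb, an extension of 0 or 10 kb and use of the summit kept the numbers within 1.5 times of those reported; at 10 kb Ncald gained the wild-type peak in Grhl2, giving 3 genes, 3 peaks and a wild-type density ratio of 5.25 (1.08 to 15.5), which, like the other ratios, rests on genes chosen by their peaks and tests nothing. Filters that shorten the lists left 1 peak per list in these genes, that of Caln1 in the transgenic list and that of Vsnl1 in the wild-type list. A fold of at least 5, of 166 transgenic and 62 wild-type peaks, left 1 of 8 genes and 1 of 19 family genes with a peak in each list, with 1 transgenic and 0 wild-type peaks in the surroundings. The density ratios to other coding genes were then 10.7 (0.264 to 63.2) and 27.8 (0.661 to 181), each resting on 1 peak. A −log10 p of at least 5, of 2036 and 185 peaks, again left 1 gene, 1 peak and 1 family gene per list, with 3 and 0 peaks in the surroundings, and a transgenic density ratio of 0.707 (0.0179 to 3.95), below 1. The transgenic list shortened to 743 peaks left 1 gene, 1 peak, 1 family gene and 1 surrounding peak. Surroundings of 250 kb held 3 transgenic and 2 wild-type peaks, and those of 1 Mb held 25 and 9. In each case the alternative removes or adds peaks or length by construction. No paired analysis was possible because each genotype has 1 library, and for the same reason no library could be left out. Single peaks rest on few reads, with a median of 6 fragments per peak and 0 peaks at a q of 0.05 or less in either list, and whether depth set the counts was not tested. The presence or lack of a peak in a gene was not shown to differ between genotypes.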

Other observations

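Calcium-binding proteins outside the sensor family were also looked up. Of 5 EF-hand buffer genes (Calb1, Calb2, Pvalb, Ocm and S100b), 1 held a transgenic peak and 0 a wild-type peak. The exact binomial intervals of these shares were 0.505 to 71.6% and 0 to 52.2%. Over all coding genes the shares were 5.69% and 0.911%. Up to 50 kb, the class of all 5 genes, they were 1.74% and 0.139%. The mean densities of the chromosomes of these genes give 0.299 transgenic and 0.0405 wild-type peaks. With 5 genes and 1 peak, nothing is read from the counts. The peak lay in Calb2, which encodes calretinin, a calcium buffer of interneurons, with 6 fragments and a fold of 3.38.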
